A study of Mus musculus with 3 samples.

Results

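Of the 32285 genes in the deposited matrices, 8 noncoding transcripts without a descriptive name were examined here, Gm15622, Gm14764, Gm15401, Gm47818, Gm13613, Gm50136, AW495222 and Gm3734. They were chosen by their measured UMI counts, because they stood among the leading genes of groups of nuclei that came almost only from a mouse fed a normal diet (ND). Their loss from the livers of mice with MASH-related fibrosis (STZ-HFHC) is therefore a description, and no test was made of it. All 8 were found by identifier in the GENCODE M21 annotation, 5 as antisense transcripts and 3 as intergenic noncoding RNAs. All 8 also passed the minimum of 50 UMIs over the nuclei kept, as did 16829 genes in all, of which 2659 were noncoding.

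Frozen liver of 3 male C57BL/6 J mice gave 1 library of single nuclei each. The ND mouse was a normal control. STZ-HFHC 1 and 2 had received 0.2 mg of streptozocin (STZ), which destroys the islets, at 3 days of age, and were fed a high-fat, high-cholesterol (HFHC) diet with 41 kcal% fat from 4 weeks of age. Liver disease, diabetes and diet cannot be told apart in this model. The ND label carries another code than the STZ-HFHC labels, so that library batch and condition cannot be told apart either, and 1 ND mouse gives no spread. After limits on genes and mitochondrial counts, 8494 ND nuclei were kept, and 8921 and 10921 from the STZ-HFHC mice 1 and 2, with a median of 4068, 3015 and 4027 UMIs per nucleus. A pair of libraries shared 29 to 32 barcodes. Levels are UMIs of a gene summed over nuclei, scaled to the total of those nuclei (CPM), and where 3 values stand in a row they are those of ND, STZ-HFHC 1 and STZ-HFHC 2. In such sums, fewer nuclei of a type and less RNA per nucleus cannot be told apart. Intervals in parentheses are 95% intervals that cover counting error only, and an SD is over the STZ-HFHC mice (n = 2).

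An antisense transcript is read from the DNA strand opposite to another gene, so that part of its sequence is complementary to that gene's RNA. Many long noncoding RNAs stay in the nucleus, and most have no known function. Free RNA is RNA that leaks from broken cells and enters droplets with any nucleus, and in liver it comes largely from hepatocytes, the most abundant cells with the most RNA. Bhmt, which encloses Gm15622, encodes betaine-homocysteine methyltransferase, the hepatocyte enzyme that uses betaine to turn homocysteine back into methionine.

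Gm15622 lay at chr13:93625382-93628633 of GRCm38, on the plus strand, inside the Bhmt gene (chr13:93616675-93637961), which is read from the minus strand. Its 1464 bases in 2 exons shared 187 bases with exons of Bhmt, all of them protein-coding in Bhmt. AW495222 (chr13:93706182-93719175, minus strand) lay on the same chromosome within Dmgdh, the gene of dimethylglycine dehydrogenase, which acts on the product that Bhmt makes from betaine. It shared 215 coding bases with Dmgdh. Gm13613 (chr2:69248307-69272491, plus strand) shared 136 coding bases with Abcb11, the bile salt export pump. Gm14764 (chrX:85744348-85749764, plus strand) shared 84 coding bases with Gk, glycerol kinase, in an exon found in 1 of 8 annotated Gk transcripts. The complementary stretches are shown because exonic reads of a pair could be told apart there only by strand. If intronic reads were counted, the same would hold for the whole of each transcript, since each lies within the span of its host gene. Each is the transcript's own strand, spliced, from GENCODE M21, and capitals mark the bases complementary to exons of the gene on the other strand.
Gm15622, bases 1 to 206: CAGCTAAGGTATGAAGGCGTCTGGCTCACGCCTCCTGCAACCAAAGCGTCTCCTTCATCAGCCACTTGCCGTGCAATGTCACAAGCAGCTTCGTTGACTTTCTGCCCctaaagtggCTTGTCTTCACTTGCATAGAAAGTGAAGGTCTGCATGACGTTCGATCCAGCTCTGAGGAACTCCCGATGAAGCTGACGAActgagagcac
AW495222, bases 283 to 517: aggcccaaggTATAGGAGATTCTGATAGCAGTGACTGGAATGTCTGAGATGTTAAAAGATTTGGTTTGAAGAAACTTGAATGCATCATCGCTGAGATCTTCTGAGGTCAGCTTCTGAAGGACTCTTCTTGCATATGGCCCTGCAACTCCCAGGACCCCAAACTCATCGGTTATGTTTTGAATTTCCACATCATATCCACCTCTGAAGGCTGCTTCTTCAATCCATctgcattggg
Gm13613, bases 275 to 430: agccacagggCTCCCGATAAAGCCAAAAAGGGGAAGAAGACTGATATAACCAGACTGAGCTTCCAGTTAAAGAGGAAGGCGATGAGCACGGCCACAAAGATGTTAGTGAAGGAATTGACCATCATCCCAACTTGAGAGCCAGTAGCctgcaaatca
Gm14764, bases 151 to 254: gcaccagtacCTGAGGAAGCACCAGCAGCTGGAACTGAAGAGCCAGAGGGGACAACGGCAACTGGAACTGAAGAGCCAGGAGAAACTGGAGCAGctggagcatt
The sequencing kit marks the strand of each RNA. Whether counting used strand, and whether intronic reads were counted, is not given in the sources used here, so that UMIs of an antisense transcript and of the gene it overlaps may not be fully separate.

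**Figure D1:**
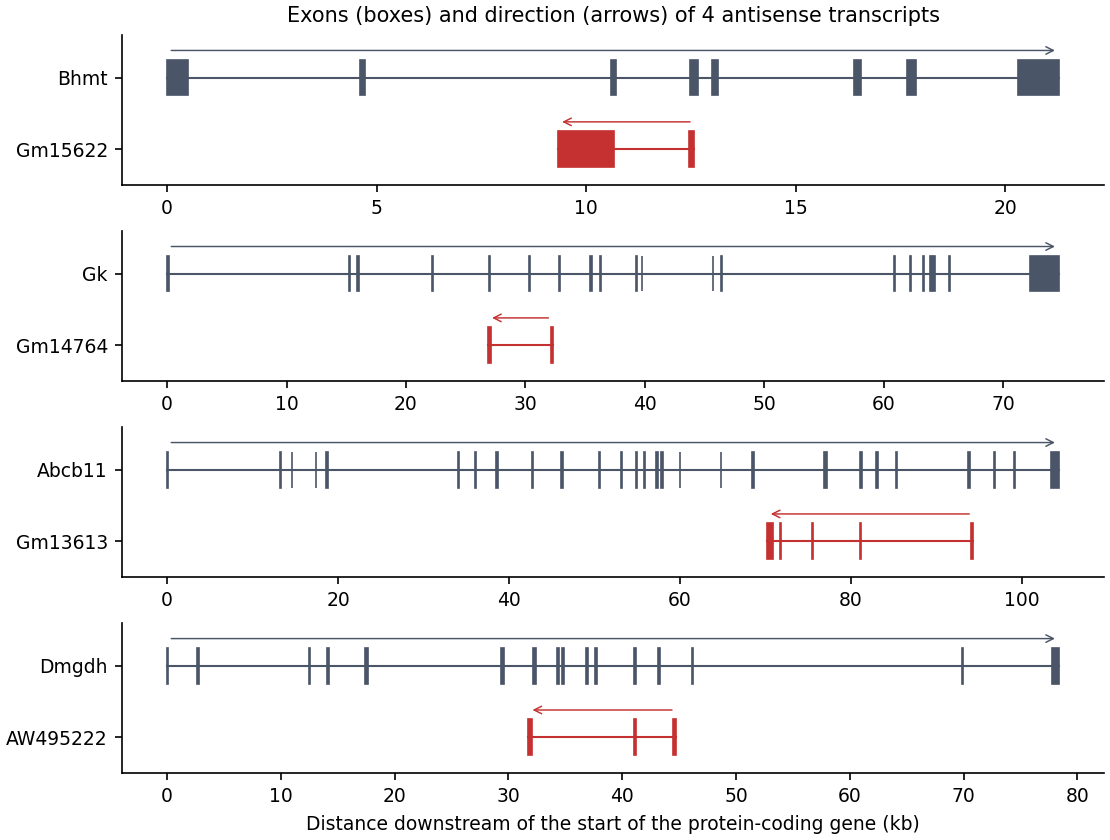
Exons (boxes), introns (lines) and direction of transcription (arrows) of 4 antisense transcripts and of the protein-coding genes that hold them, with the distance from the start of the protein-coding gene in kb on the x axis. Each noncoding transcript runs against its host gene, and Gm15622 shares parts of 2 exons with Bhmt.

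Gm15401 (chr6:72629288-72637717, plus strand) lay within Tcf7l1, a transcription factor of the Wnt pathway, near the end of that gene. It shared 179 bases with exons of Tcf7l1, 84 of them coding. A further gene on the other strand, Gm37969, overlapped it too. Exons of Tcf7l1 and Gm37969 together covered 685 of 1107, 926 of 926 and 257 of 378 bases of the 3 Gm15401 transcripts. The other 3 transcripts were annotated as intergenic. Gm50136 (chr19:23061454-23064032, plus strand) overlapped the noncoding gene C330002G04Rik on the other strand. Gm47818 (chr9:77836030-77848111, plus strand) lay 41545 bases downstream of Gclc, the catalytic subunit of the enzyme that starts glutathione synthesis. A library made from the 3' end captures polyadenylated ends, so the last 50 bases of each transcript were searched for the polyadenylation signals AATAAA and ATTAAA on the transcript strand. A signal was found in the transcripts of Gm47818 and Gm13613 and in 1 of 3 transcripts of Gm50136, and in 40.4% of 13612 antisense and intergenic noncoding transcripts. The ends of Gm47818 and Gm13613 are shown with the signals in capitals.
Gm47818, bases 2691 to 2740: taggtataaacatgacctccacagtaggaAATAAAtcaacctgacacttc
Gm13613, bases 1395 to 1444: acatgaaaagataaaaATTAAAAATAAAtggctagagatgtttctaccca

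Gm15622 was the most abundant of the 8 in ND, and it was almost lost in the STZ-HFHC mice. Its level over all nuclei was 988 CPM (979–998) in ND but 7.89 (7.09–8.76) and 23.8 CPM (22.6–25.2) in the STZ-HFHC mice, from 42208, 350 and 1326 UMIs. ND was thus 125 times the level of STZ-HFHC 1 and 41.5 times that of STZ-HFHC 2. The log2 ratio to ND was -6.97 and -5.37, with a mean of -6.17 ± 1.13 (SD, n = 2). STZ-HFHC 1 was the lower of the STZ-HFHC mice, and their counting intervals did not overlap.

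The other 7 transcripts were less abundant in ND and lower in both STZ-HFHC mice. Gm50136 gave 104 (101–107), 9.52 (8.63–10.5) and 9.26 CPM (8.47–10.1). Gm14764 gave 50.1 (48.0–52.3), 0.902 (0.644–1.23) and 4.55 CPM (4.005–5.14). Gm3734 gave 42.1 (40.2–44.1), 3.07 (2.57–3.63) and 3.68 CPM (3.20–4.23). These 3 differed in how alike the STZ-HFHC mice were, with overlapping counting intervals for Gm50136 and Gm3734 and a lower level in STZ-HFHC 1 for Gm14764.
Gm13613 gave 35.5, 2.25 and 4.80 CPM. AW495222 gave 28.1, 0.586 and 2.97 CPM. Gm15401 gave 24.9, 0.722 and 2.57 CPM. For each of them ND was highest and STZ-HFHC 1 lowest, with counting intervals apart.
Gm47818, the least abundant, gave 21.4, 0.338 and 0.881 CPM, from 914, 15 and 49 UMIs.

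**Figure D2:**
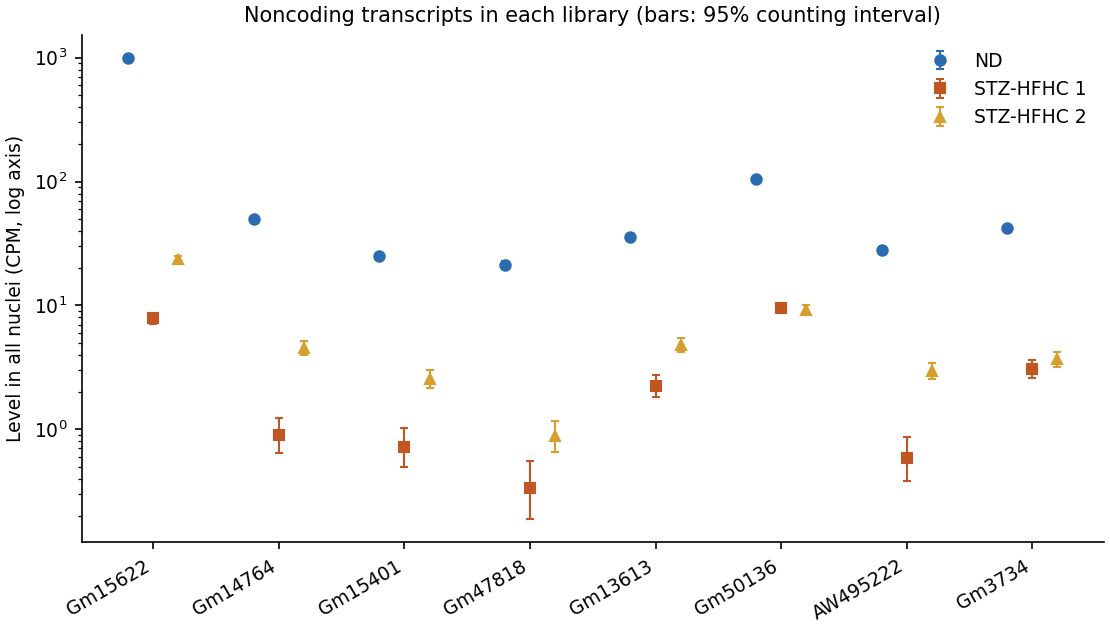
Level of each of the 8 noncoding transcripts in all nuclei of each library, in CPM on a log axis, with 95% counting intervals as bars, many of them shorter than the symbol. ND lies above both STZ-HFHC libraries for every transcript, as at 988 against 7.89 and 23.8 CPM for Gm15622 and 42.1 against 3.07 and 3.68 CPM for Gm3734.

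Summed, the 8 transcripts made up 1294 (1284–1305), 25.3 (23.8–26.8) and 52.5 CPM (50.7–54.5), and the log2 ratio to ND averaged -5.15 ± 0.75 (SD, n = 2). Without Gm15622 the sum was 306, 17.4 and 28.7 CPM, and the ratio averaged -3.78 ± 0.51 (SD, n = 2). The log2 ratios of Gm50136 (-3.45 and -3.49) and Gm3734 (-3.78 and -3.51) were close between the STZ-HFHC mice, whereas those of Gm14764 (-5.78 and -3.46) and AW495222 (-5.55 and -3.24) were not.

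A rule of size took the place of a test, with a log2 ratio to ND of -2 or lower in both STZ-HFHC mice among genes with at least 50 UMIs. It called 98 of 16829 genes lower, 0.582% of those measured, and 618 higher, 3.67%. Of noncoding genes, 48 of 2659 were called lower (1.81%), and of protein-coding genes 50 of 14153 (0.353%). All 8 transcripts were among the 48, which the way they were chosen fixes, so nothing is read from it. The median log2 ratio of all genes measured was 0.19 and 0.17 in the STZ-HFHC mice 1 and 2, and that of noncoding genes was -0.28 and -0.09. Ordered by the less negative ratio of the STZ-HFHC mice, Gm15622 came 3rd and Gm47818 5th of the 98, and Gm3734, Gm14764, Gm50136, Gm15401, AW495222 and Gm13613 stood at places 12, 14, 15, 18, 19 and 27. The other genes at the first 10 places were Serpina1e, an alpha-1-antitrypsin gene, the major urinary protein gene Mup7, Pitx3, Bhmt itself, the steroid enzyme gene Hsd3b5, the fatty acid elongase gene Elovl3, Gm36855 and the citrate and succinate transporter gene Slc13a2. Serpina1e stood first, with log2 ratios of -8.77 and -6.80. Other noncoding genes stood among them too, since Gm13613 was 13th of the noncoding genes in this order. Gm36855 (-4.43 and -3.99) and Gm34654 (-3.40 and -3.58), which lies 26237 bases from Gm47818, rested on 176 and 178 UMIs in ND.

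Of a list of 24 well-known noncoding RNAs, 22 passed the minimum, and 0 were called lower and 3 higher, where 3.67% of all genes were called higher. Rian (log2 2.74 and 3.42) and Mirg (2.62 and 3.37), both from one imprinted cluster of maternally expressed noncoding RNAs, and Pvt1 (2.66 and 2.45), a neighbour of Myc, were the 3. Neat1, the RNA that builds nuclear paraspeckles, gave 0.49 and 0.22. Malat1, the most abundant of the list, was at 57235, 28567 and 34419 CPM, log2 ratios of -1.003 and -0.73. The median of the list was 0.03 and 0.18. Hnf4aos, the antisense transcript of the hepatocyte factor gene Hnf4a, was at 436, 405 and 451 CPM.

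The genes that hold or adjoin the 8 transcripts did not move alike. Bhmt fell with Gm15622, from 5196 CPM in ND to 140.0 and 226 CPM, log2 ratios of -5.21 and -4.53. Dmgdh gave 777, 159 and 215 CPM (-2.29 and -1.85), Gk 981, 333 and 264 CPM (-1.56 and -1.89) and Abcb11 1173, 467 and 385 CPM (-1.33 and -1.61). In each of these pairs the noncoding transcript had the more negative ratio in both STZ-HFHC mice. C330002G04Rik, noncoding as well, had log2 ratios of -3.22 and -3.14, near those of Gm50136 on its other strand.
Tcf7l1 and Gclc did not fall with the transcripts beside them, where the median log2 ratio of all genes measured was 0.19 and 0.17. Tcf7l1 was at 194, 240 and 230 CPM (0.30 and 0.24), while Gm15401 within it fell. Gclc was at 499, 677 and 706 CPM (0.44 and 0.50), while Gm47818 downstream of it fell to 15 and 49 UMIs. Among other genes within 50 kb, G6pc2, a glucose-6-phosphatase gene beside Gm13613, gave -3.97 and -1.195, Bhmt2, the homologue next to Bhmt, -1.63 and -1.82, and Spc25, of the kinetochore, 0.54 and 0.09.

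Within a library, the ratio of an antisense transcript to its partner needs no scaling to the total of UMIs. It can still vary with the depth of the nuclei. For every 100 Bhmt UMIs there were 19.02 (18.8–19.2), 5.64 (5.05–6.28) and 10.6 Gm15622 UMIs (9.98–11.2). Gm15622 was therefore lower against Bhmt in both STZ-HFHC mice, and lower in STZ-HFHC 1 than in STZ-HFHC 2. The order was the same for AW495222 per 100 Dmgdh UMIs, at 3.61, 0.369 and 1.38, for Gm13613 per 100 Abcb11 UMIs, at 3.03, 0.483 and 1.25, and for Gm14764 per 100 Gk UMIs, at 5.11, 0.271 and 1.72. Gm15401 per 100 Tcf7l1 UMIs gave 12.8, 0.301 and 1.12. In contrast, Gm50136 per 100 C330002G04Rik UMIs gave 302 (285–321), 257 (214–310) and 237 (202–279), and only the intervals of ND and STZ-HFHC 2 lay apart. Since these ratios use the contrast on which the transcripts were chosen, they too are descriptions. The Gm15622 ratio in hepatocyte-like nuclei alone was 18.1, 6.57 and 11.1.

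Of the 15 genes of betaine and methionine metabolism examined, all passed the minimum, and 12 of 15 were below 0 in both mice. Only 1 was called lower, Bhmt itself, where 0.582% of all genes were. The median log2 ratio was -1.18 and -0.91, beside 0.19 and 0.17 over all genes. Gnmt, which uses up S-adenosylmethionine, gave -2.93 and -1.57, and Cbs, which starts the path from homocysteine to cysteine, -2.30 and -1.07. Mtr, the other enzyme that remethylates homocysteine, gave 0.47 and 0.38. The ratio was lower in STZ-HFHC 1 than in STZ-HFHC 2 for 11 of the 15, Bhmt among them, and higher for Bhmt2, Pemt, Chdh and Mtr.

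To see which nuclei held the transcripts, nuclei of the 3 libraries were clustered without the 8 and without the genes they overlap, and clusters were named from marker lists. ND nuclei lay almost alone in 6 of the 23 clusters, 2 of them hepatocyte-like and 1 each endothelial-like, stellate-like and macrophage-like, with 1 unnamed. These held 7838 nuclei of ND, with 53068 of its 55288 UMIs of the 8 transcripts, and 8 and 25 STZ-HFHC nuclei. Those few STZ-HFHC nuclei held 0 of the 1121 UMIs of the 8 in mouse 1 and 7 of the 2923 in mouse 2. Nuclei whose barcode also occurred in ND held 3 and 7 of them. Of STZ-HFHC 1 nuclei, 8074 of 8921 had no UMI of any of the 8, as did 8862 of 10921 in STZ-HFHC 2 and 1247 of 8494 in ND, and the highest count in a nucleus was 48, 9 and 10.

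In ND, Gm15622 was present at a like level in the 6 classes of over 100 nuclei. It was at 1002 CPM in hepatocyte-like nuclei (989–1016), 1122 in endothelial-like (1098–1147), 1046 in stellate-like (1022–1070), 996 in macrophage-like (935–1059), 1054 in B cell-like (974–1139) and 963 in T or NK cell-like nuclei (883–1047). Lower levels were seen in the 32 cholangiocyte-like (740.2) and the 39 monocyte or dendritic-like nuclei (411). Bhmt was as level, at 5525 CPM in hepatocyte-like, 5354 in endothelial-like and 5347 in B cell-like nuclei. The summed hepatocyte markers were at 18788 CPM in hepatocyte-like nuclei of ND and between 12297 and 16076 in the other classes, and 0 of the 10 were at 0 in any of them. Against this, the summed endothelial markers were at 1915 CPM in endothelial-like and 251 in hepatocyte-like nuclei.
In STZ-HFHC nuclei the order was steeper. Gm15622 was at 10.3 CPM in hepatocyte-like and 2.69 in endothelial-like nuclei of STZ-HFHC 1, and at 27.2 and 22.2 CPM in STZ-HFHC 2. Over all named classes other than hepatocyte-like, it reached 35.4% and 62.1% of the hepatocyte-like level, compared with 107% in ND.

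**Figure D3:**
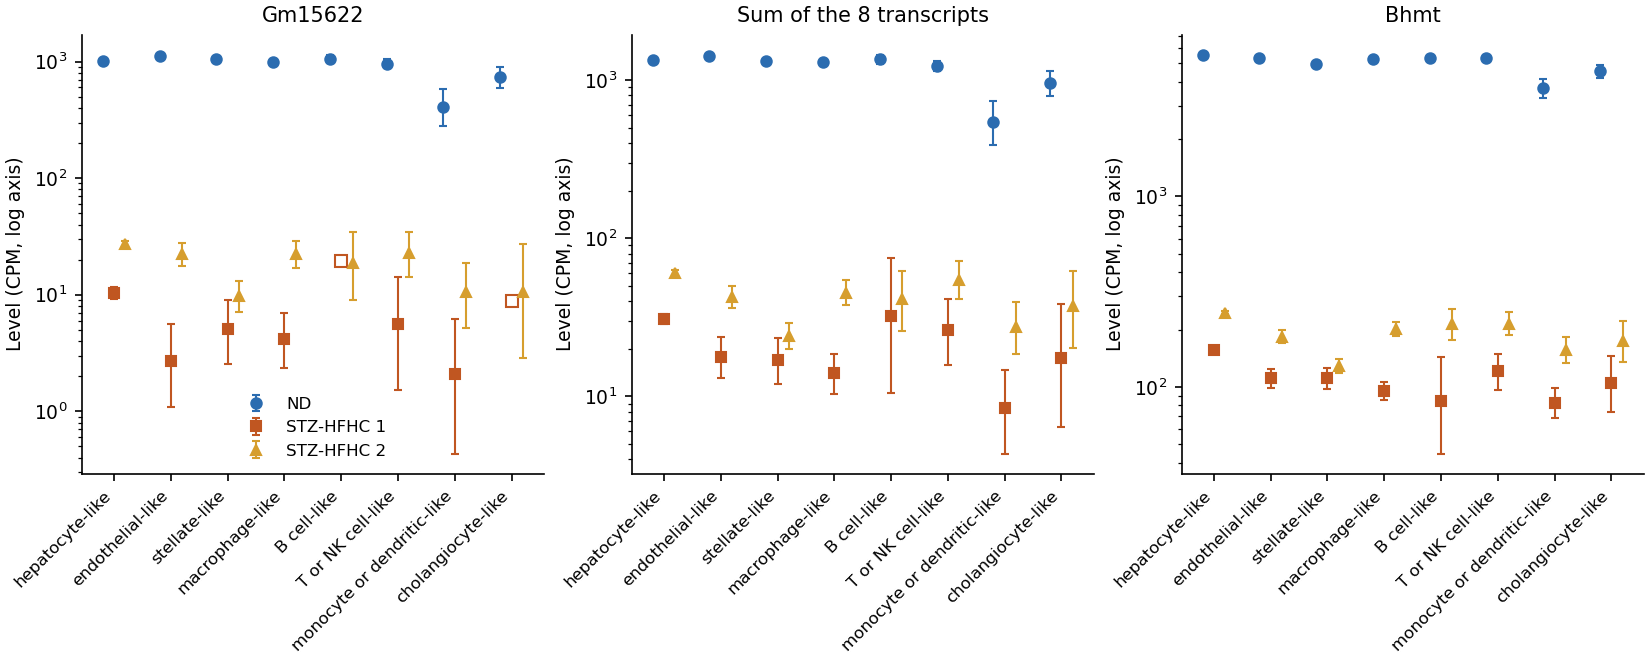
Levels of Gm15622, of the 8 transcripts summed and of Bhmt in each class of nuclei and each library, in CPM on log axes, with 95% counting intervals. Open symbols stand at the level of 3 UMIs where none was counted. In ND, Gm15622 lies between 411 and 1122 CPM in every class, above all STZ-HFHC values.

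Within classes of nuclei the levels were as follows. The 8 transcripts summed gave 1332, 30.8 and 60.4 CPM in hepatocyte-like nuclei, where the log2 ratio averaged -4.95 ± 0.69 (SD, n = 2). In endothelial-like nuclei the sum was 1417, 17.7 and 42.7 CPM (-5.68 ± 0.89), and in macrophage-like nuclei 1297, 14.0 and 45.3 CPM (-5.68 ± 1.19). Nuclei of a class lay in different clusters in ND and STZ-HFHC, with most hepatocyte-like nuclei in clusters 1 and 13 in ND and in 2, 3, 6 and 16 in STZ-HFHC, the endothelial-like in cluster 10 in ND and in 7 and 21 in STZ-HFHC, and the macrophage-like in 20 and 4. Of these hepatocyte-like clusters only 13 was named by the main rule, with 6 of 10 hepatocyte markers raised. The others were named in a second pass, which asked for 3 or more markers at 1.2-fold over clusters of other classes. Cluster 6 had 0 hepatocyte markers raised by the main rule and 7 in the second pass. The 10 leading genes of cluster 10, Serpina1e and Bhmt first, held no endothelial marker, though 8 of 10 markers were raised in it, together with 2 hepatocyte markers. Clusters 7 and 21 had 10 of 10 and 0 raised. Cluster 20 had 7 of 12 macrophage markers raised, with 3 hepatocyte markers, and cluster 4 had 10 and 0. The rule of size called all 8 lower in hepatocyte-like nuclei (0.723% of 14804 genes) and in endothelial-like nuclei (0.74% of 11628), and 3 in macrophage-like nuclei (0.728% of 10158), where the other 5 had under 50 UMIs. The 8 were chosen from ND clusters of these classes and passed the minimum through ND, so nothing is read from these counts.

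For free RNA, 12 abundant hepatocyte transcripts, such as Alb, Apoa1 and Ttr, served as the measure. Between ND and STZ-HFHC, 1 of the 12 was called lower, Apoa1, where 0.582% of all genes were. All 12 were below 0 in both mice, with a median log2 ratio of -1.38 and -1.54, beside 0.19 and 0.17 over all genes. In the other named nuclei of ND they were at 56.0% to 91.1% of their hepatocyte-like level, with a median of 75.3%. Of the 8 transcripts, Gm3734 was at 54.1% (48.1–60.7), Gm47818 at 70.3% (60.9–81.0), Gm13613 at 81.8% and Gm50136 at 83.6%, within or next to that range. Gm14764 was at 100.1% (91.6–109), AW495222 at 99.8% (88.5–113), Gm15622 at 107% (105–109) and Gm15401 at 129% (114–146), above the highest of the 12, though the interval of AW495222 reached below it. Summed, the 8 were at 101%, and at 83.5% once each nucleus was thinned to 1000 UMIs. Bhmt was at 93.7%, and Tcf7l1, the gene that Gm15401 overlaps, at 161%. For scale, the endothelial markers Stab2, Ptprb and Kdr were at 404% to 518%. In STZ-HFHC 1 the 12 hepatocyte transcripts were at 52.9% to 149%, with a median of 81.5%. In STZ-HFHC 2 they were at 64.5% to 154%, with a median of 88.7%. In ND Gm15622 was above the range. Its value given above for STZ-HFHC 1 was below the range of that mouse. The value for STZ-HFHC 2 was only just below the 64.5% of the lowest transcript there. No interval is given for it, and so small a gap can be within counting error. The part of free RNA, or of more than 1 nucleus under a barcode, in these levels was not tested further.
The ratio of Gm15622 to Bhmt was close between the larger classes of ND, but not the same. Per 100 Bhmt UMIs it was 18.1 in hepatocyte-like nuclei (17.9–18.4), 18.1 in T or NK cell-like (16.5–19.9), 18.9 in macrophage-like (17.6–20.2), 20.96 in endothelial-like (20.5–21.5) and 20.99 in stellate-like nuclei (20.5–21.5). The hepatocyte-like interval lay apart from the endothelial-like and stellate-like ones. Within STZ-HFHC 2 the ratio was 11.1 in hepatocyte-like (10.4–11.8), 12.1 in endothelial-like (9.43–15.3) and 7.61 in stellate-like nuclei (5.45–10.4), below the ND values in each class.

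**Figure D4:**
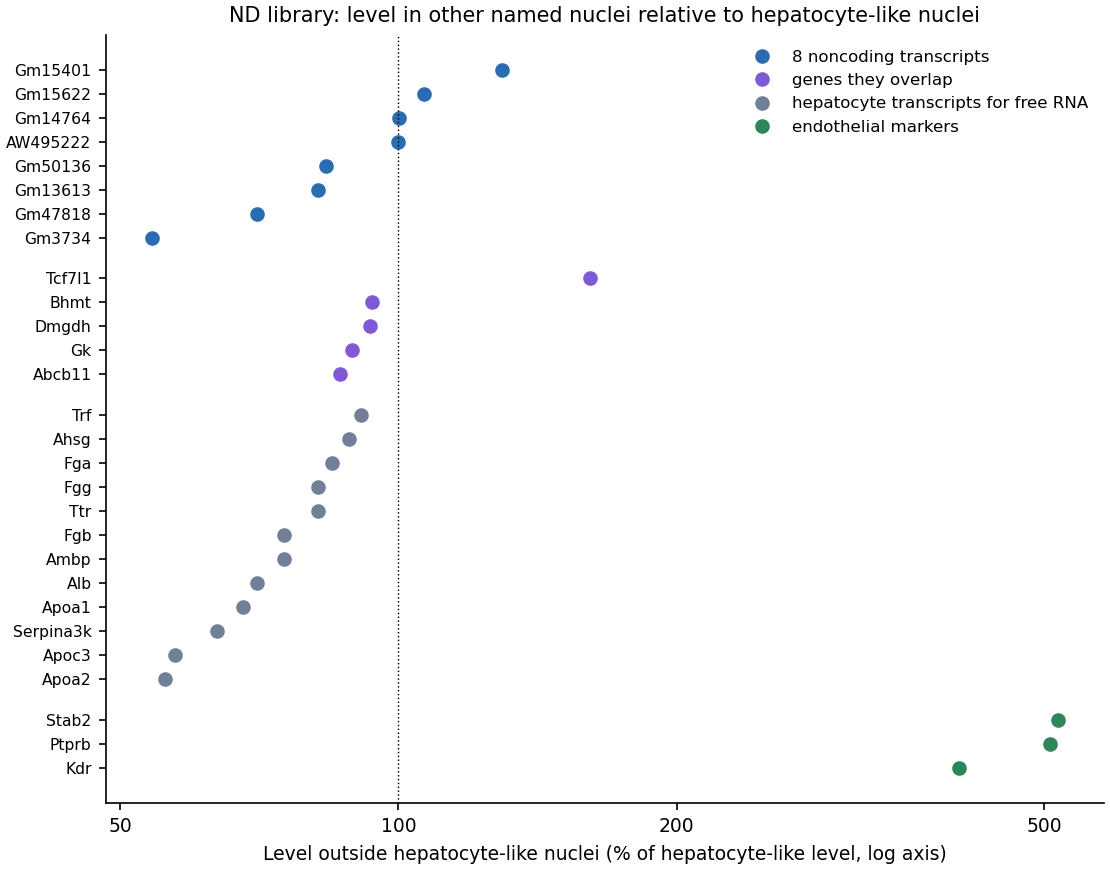
Level of each gene in named nuclei of ND other than hepatocyte-like ones, as a percent of its level in hepatocyte-like nuclei, on a log axis. The 8 noncoding transcripts range from 54.1% (Gm3734) to 129% (Gm15401), the 12 hepatocyte transcripts from 56.0% to 91.1% and the endothelial markers from 404% to 518%.

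Depth moved with these levels. In ND nuclei of the named classes other than hepatocyte-like, Gm15622 was at 312 CPM in nuclei of 1000 to under 2000 UMIs, at 908 between 2000 and 4000, and at 1143 in nuclei of 8000 UMIs or more, whereas hepatocyte-like nuclei gave 1138, 1122 and 923 CPM at those depths. Bhmt rose outside hepatocytes too, but less steeply, with 3002, 4305 and 5489 CPM. Nuclei under 1000 UMIs outside hepatocytes broke the order. They held Gm15622 at 436 CPM and Bhmt at 3311 CPM, above the nuclei of 1000 to under 2000 UMIs. Endothelial-like nuclei had a median of 5305 UMIs in ND, compared with 1751 and 1918 in STZ-HFHC 1 and 2. The 129 stellate-like nuclei of ND in a cluster shared with STZ-HFHC held Gm15622 at 229 CPM (181–287). The 1052 stellate-like nuclei of their ND cluster held it at 1087 CPM. B cell-like and T or NK cell-like nuclei of ND, in clusters shared with STZ-HFHC too, held the 1054 and 963 CPM given above. These were the highest of the shared clusters with at least 20 ND nuclei. The others, of 26 to 39 ND nuclei each, held 319, 411, 516, 677, 740 and 859 CPM (clusters 8, 9, 22, 23, 18 and 19). Barcodes left out by the limits held the 8 transcripts at 1415, 25.1 and 51.8 CPM, beside 1294, 25.3 and 52.5 CPM in the nuclei kept.

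Shares of nuclei were compared after each nucleus was thinned to 1000 UMIs, which left out 587, 789 and 645 nuclei. At least 1 UMI of the 8 was found in 64.1% (63.0–65.2), 1.92% (1.63–2.24) and 4.50% of nuclei (4.10–4.91), and before thinning in 85.3%, 9.49% and 18.9%. Gm15622 alone was found in 58.5% of thinned hepatocyte-like nuclei of ND and in 56.4% of endothelial-like and 45.5% of B cell-like ones. Their median depths before thinning were 4046, 5305 and 2164.5 UMIs. Expression outside hepatocytes and free RNA cannot be told apart in these shares, and neither was tested. Bhmt was found in 97.9% of thinned hepatocyte-like and 97.5% of endothelial-like nuclei of ND.

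In ND, Gm3734 was higher and the other 7 transcripts were lower in nuclei rich in Glul. Gm3734 (chr18:46630807-46642970 of GRCm38, plus strand) was intergenic, 14351 bases from Eif1a, a translation initiation factor gene with log2 ratios of 0.21 and 0.40. Hepatocytes around the central vein make glutamine synthetase (Glul) and carry Lgr5, a receptor of the Wnt pathway, and those around the portal vein make histidine ammonia-lyase (Hal). In each condition 1 cluster was led by genes such as Lgr5 and Slc1a2, in ND an unnamed cluster of 722 nuclei and in STZ-HFHC a hepatocyte-like cluster of 248 and 429 nuclei. These clusters were compared with the other large hepatocyte-like clusters of the same library, a choice made after values had been seen. Glul was 16.8, 40.2 and 54.7 times as high in them in the 3 libraries, and Hal was lower in each.
Gm3734 was at 104 CPM in the Glul-high cluster of ND (93.2–115) and at 45.9 CPM in the other clusters (43.1–48.8). STZ-HFHC 1 gave 10.4 (6.67–15.5) and 3.41 CPM (2.72–4.23), and STZ-HFHC 2 gave 9.29 (6.17–13.4) and 3.74 CPM (3.11–4.47). Its level was therefore higher in the Glul-high cluster in 3 of 3 libraries, at 2.26 (2.00–2.56), 3.05 (1.85–4.86) and 2.48 times (1.58–3.77). The STZ-HFHC values in the Glul-high cluster rest on 24 and 28 UMIs. Between nuclei with at least 2 Glul UMIs and with 0, among the hepatocyte-like and Glul-high clusters, the ratios were 2.28, 2.08 and 2.30.
The other 7 transcripts were lower in the Glul-high cluster of ND. Gm15401 was at 6.31 and 23.6 CPM there and in the other clusters, 0.268 times (0.164–0.413), Gm15622 at 543 and 1005 CPM, 0.540 times (0.514–0.566), and Bhmt at 3195 and 5541 CPM, 0.577 times. Gm50136 was at 0.748 times, the nearest to 1 of the 7. In the STZ-HFHC mice Bhmt was at 1.09 and 1.03 times, and Gm15622 at 1.74 (1.205–2.44) and 1.08 times (0.856–1.34).

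**Figure D5:**
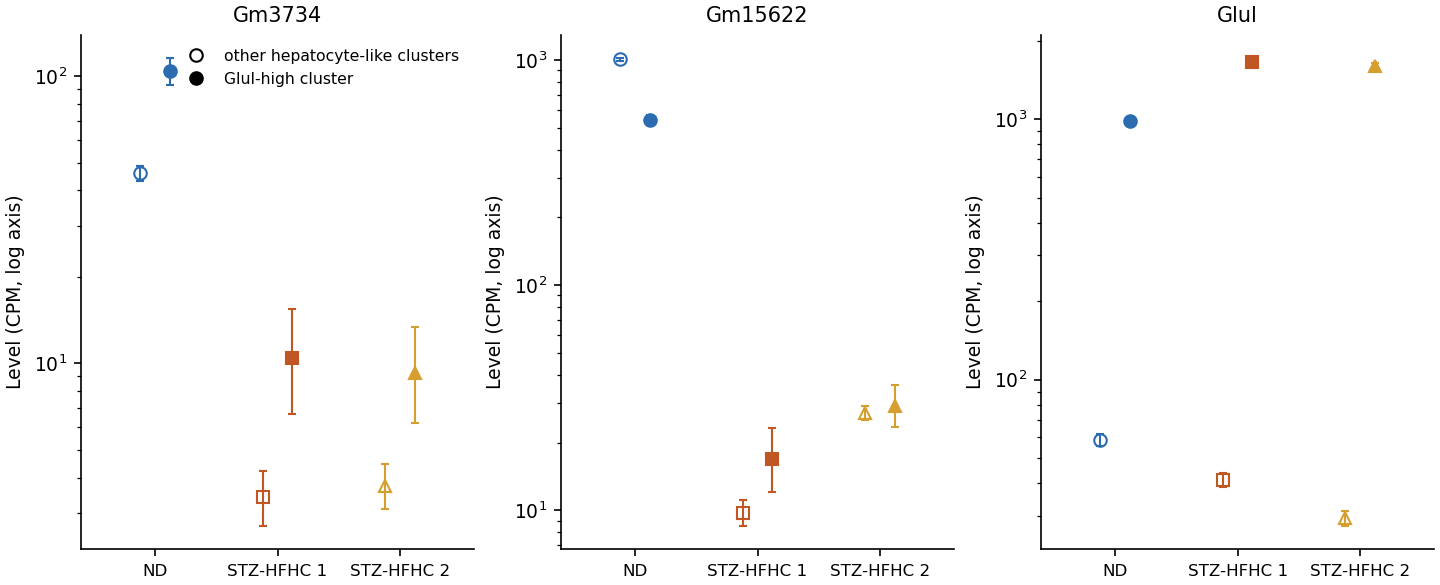
Levels of Gm3734, Gm15622 and Glul in the Glul-high cluster (filled symbols) and in the other large hepatocyte-like clusters (open symbols) of each library, in CPM on log axes, with 95% counting intervals. Gm3734 is higher in the Glul-high cluster of all 3 libraries, at 104 against 45.9 CPM in ND, and Gm15622 is lower in that of ND, at 543 against 1005 CPM.

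The genes whose levels were most like those of each transcript were found over 21 combinations of library and named class with at least 100 nuclei, among 11788 genes with at least 500 UMIs. These points share libraries, depth and free RNA, and the gap between ND and STZ-HFHC carries much of each correlation of log2(CPM + 1), so the values only rank genes. Nearest to Gm15622 were Sco2, a copper chaperone gene of mitochondria (r = 0.986), G0s2, an inhibitor of fat breakdown (r = 0.985), and Azgp1 (r = 0.985). Bhmt was among the 3 nearest to Gm47818 (r = 0.968) and to AW495222 (r = 0.963), and Serpina1e among those of Gm47818 (r = 0.968) and Gm13613 (r = 0.966). Ttr and Trf, which encode plasma carrier proteins, were among those of Gm50136 (r = 0.967 and 0.960). Gstp1 came first for Gm3734 (r = 0.958). Among the 8 themselves, r ranged from 0.821 between Gm50136 and Gm3734 to 0.969 between Gm15622 and Gm14764.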

How the data were processed

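The 3 libraries were made from liver nuclei with the 10x Chromium Single Cell 3' v3.1 kit. Per the labels, Cell Ranger 7.0.1 and mm10 were used, and raw UMI counts were deposited, with no correction for free RNA stated. Kept barcodes had 200 to 5000 genes and at most 5% mitochondrial counts, the limits the study states, which left 28336 of the 30989 deposited barcodes. The study's count of nuclei after its filter equals all deposited barcodes, so the nuclei kept here are not the same set. They held 42715797, 44350401 and 55632923 UMIs in the 3 libraries.

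Analyses used Python 3.11.15, Scanpy 1.11.5, leidenalg 0.10.2 and SciPy 1.17.1. Counts were log-scaled per nucleus and clustered together without batch correction, by the Leiden method (resolution 1) on 15 neighbors, from 30 principal components of 2000 variable genes, leaving out 14 genes (the 8 transcripts and genes tied to them). A cluster took the marker list with the largest share raised 2-fold, if 3 or more markers and 33.3% of it were raised, or stayed unnamed where lists were mixed, and hepatocyte-like clusters could be named in a second pass. Doublets were kept. The automatic Scrublet threshold marked 0, 1 and 0 nuclei and did not work, so the highest 8% of scores were left out as an alternative.

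Levels had exact Poisson intervals, shares Clopper-Pearson intervals, and ratios exact conditional binomial intervals. Log2 ratios had 0.5 added to each count. Of 32285 identifiers, 32235 were in GENCODE M21 (GRCm38), and transcript sequences came from there. Because ND is 1 library, the conditions were compared without a test. The rule of size was tested on simulated data of all nuclei, where 100 of 100 genes lowered 8-fold were called, 0 of those lowered 2-fold and 0 of 16644 unchanged ones. The simulated counts held counting error only, with no differences between mice or batches, and the lowered genes had at least 500 UMIs. With the cut at 4-fold this checks the calculation, and gives no error rate for the mice compared here. Genes named were the 8 transcripts, genes within 50 kb of them, the 10 lowest genes, the 3 most alike per transcript and 3 gene lists. The transcripts and lists were chosen with earlier results of these data known. Genes that mark the lobule and the Glul-high clusters were chosen after values were seen.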

Additional observations from a re-analysis of the deposited data

Results flagged for a closer look

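In ND, 3 of the 8 transcripts and Bhmt were lower in the Glul-high cluster than in the other hepatocyte-like clusters, while both STZ-HFHC mice gave values above 1. The ratio of Gm15622 was 0.540 in ND but 1.74 and 1.08 in the STZ-HFHC mice 1 and 2. For Gm47818 it was 0.507, 1.17 and 1.43, for AW495222 0.715, 1.76 and 1.53, and for Bhmt 0.577, 1.09 and 1.03. The difference between ND and STZ-HFHC was not tested, since ND is 1 library. Of these STZ-HFHC ratios, the counting interval of that of Gm15622 in STZ-HFHC 1 (1.205–2.44) was the one that did not include 1. Those of Gm47818 and AW495222 rest on 1 to 16 UMIs in the Glul-high cluster. The other transcripts lower there in ND were not above 1 in both STZ-HFHC mice. Gm13613 gave 2.22 (1.09–4.19) and 0.929, Gm14764 1.41 and 0.624, and Gm50136 0.621 and 0.748. Gm15401 had 0 UMIs in the Glul-high cluster of STZ-HFHC 1 and gave 1.05 in STZ-HFHC 2.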

How the results depend on the processing

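The fall of the summed transcripts kept its direction under every alternative run. Leaving out STZ-HFHC replicate 1 or 2 gave log2 ratios from -5.68 to -4.62 over all nuclei, from -5.43 to -4.46 in hepatocyte-like, from -6.31 to -5.05 in endothelial-like and from -6.52 to -4.83 in macrophage-like nuclei. At a Leiden resolution of 0.5 the macrophage-like value was -4.46 in place of -5.68, and the cluster that held most STZ-HFHC endothelial nuclei was unnamed, mixed with macrophage markers, so that the endothelial-like value was not run. The number of genes called lower was 98, and was 56 with a minimum of 500 UMIs, 267 with no minimum and 153 with median-of-ratios size factors, which shifted log2 ratios by -0.23 in STZ-HFHC 1 and -0.20 in STZ-HFHC 2. Gm15622 per 100 Bhmt UMIs in ND was 19.5 over all deposited barcodes and 18.7 after thinning. In the STZ-HFHC mice 1 and 2 this ratio was 4.85 and 10.1 over all deposited barcodes. After thinning it was 4.15 and 9.26, in place of 5.64 and 10.6. The level of the 8 transcripts outside hepatocyte-like nuclei of ND, 101% of the level within them, was 99.1% without the highest doublet scores, 83.5% after thinning to 1000 UMIs and 98.2% at a Leiden resolution of 0.5; the cause was not tested. Of the values under the alternatives for single transcripts and for the Gm15622 ratio in STZ-HFHC, 54 moved by less than their error and 9 by more, 4 of them for Gm50136, with 0 changes of direction. For single transcripts the error was the SD over the STZ-HFHC mice, only 0.028 for Gm50136. Leaving out 1 mouse returns the value of the other, which always lies within that SD, so those runs could not move. The transcripts were chosen on this contrast, so nothing is read from the kept direction, here or for the sum. No paired analysis was possible because ND is 1 library. Depth limits Gm47818 and AW495222 most, with 15 and 26 UMIs in STZ-HFHC 1.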
